A study of Homo sapiens with 6 samples.

Results

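The genes described here encode the machinery that builds and reads linear (Met1-linked) ubiquitin chains and the adaptors whose ubiquitin chains the deubiquitinase CYLD removes. They were chosen as the probe sets of 10 listed gene symbols in the array's platform annotation. The rule itself sets no threshold on a measured value, but the genes were listed with earlier results of these arrays known. Of the 10 genes, 7 had a probe set under their symbol (RNF31, RBCK1, SHARPIN, TRAF6, IKBKG, MAP3K7 and BCL3), out of 19775 genes with a probe set of their own on the array. They had 17 probe sets, of which 16 were bright enough to be tested. SPATA2, TRAF2 and RIPK1 were not analysed here. The annotation gives both BCL3 probe sets a second symbol, MIR8085, a microRNA gene that lies inside BCL3 in the RefSeq gene table, and gives 1 RNF31 probe set the symbol of its neighbour IRF9. Signals of these probe sets cannot be divided between the genes named. The accessions attached to the brighter BCL3 probe set and to the shared RNF31 probe set belong to BCL3 and RNF31 in that table.

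RNA came from SAS, a human cell line established from an oral squamous cell carcinoma, and was measured on 6 Affymetrix arrays. Cells received a control siRNA (siCtrl) or an siRNA against CYLD (siCYLD), were cultured for 2 days and then spent 48 h in medium without serum, with DMSO or an ALK5 inhibitor. ALK5 is the type I receptor of TGF-β. There were 2 arrays each of siCtrl and siCYLD without inhibitor, called untreated below, and 1 array each of siCtrl and siCYLD with inhibitor. All groups were thus transfected and serum-starved, and the titles name no second CYLD siRNA, so effects of the siRNA on other transcripts cannot be told apart from loss of CYLD.

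Linear ubiquitin chains are made by LUBAC, a complex of the catalytic subunit RNF31 (HOIP) with RBCK1 (HOIL-1) and SHARPIN. After interleukin-1 binds its receptor, the ligase TRAF6 builds Lys63-linked chains that recruit the kinase TAK1 (MAP3K7). LUBAC adds linear chains that are bound by NEMO (IKBKG), the regulatory subunit of the IκB kinase. CYLD cleaves both chain types and is brought to LUBAC by SPATA2, and it also removes Lys63-linked chains from BCL3, an atypical IκB protein that works with p50 and p52 in the nucleus. TRAF6 and TAK1 also act downstream of TGF-β receptors, outside the SMAD pathway. All of these steps act on proteins, whereas the arrays measured transcripts.

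Groups followed the array titles. For 2 arrays the titles and source names conflict: siCYLD replicate 1 is sourced to control siRNA cells and siCtrl replicate 2 to CYLD siRNA cells. CYLD transcript was lower in all siCYLD arrays on each of its probe sets bright enough to be tested. The most reduced (221903_s_at) read 485 and 550 in untreated siCtrl, 77.2 and 125 in untreated siCYLD, and 421 and 71.1 in the inhibitor pair. The probe set used for CYLD as a gene (213295_at) fell less, reading 411 and 500, 278 and 230, and 349 and 176. Dim probe sets that were not tested did not all fall: 222142_at read 18.9 in siCtrl and 53.1 in siCYLD with inhibitor. The ratio of 3' to 5' ACTB signal was 3.21 to 3.67 in the 3 siCtrl arrays and 2.26 to 2.48 in the 3 siCYLD arrays, and the median log2 value of 27 poly-A spike probe sets was 9.20 to 9.23 against 9.47 to 9.70. These differences run with the siRNA, and their part in the results below was not tested. Of 10 squamous epithelial markers 7 had a probe set of their own. SFN, CDH1 and PERP were bright on every array, KRT14 lay between 62.3 and 148, and the PKP1 probe set tested lay between 3.75 and 85.7, near the floor. DSG3, a desmosomal cadherin, fell with the knockdown, from 1211 and 1261 to 754 and 820 (-0.64, adjusted p = 0.00224, limma). Summed signals of 7 fibroblast markers were 716 to 822 in siCtrl and 838 to 914 in siCYLD arrays, and those of 4 leukocyte markers 174 to 247 and 199 to 223. Those of 4 endothelial markers were 244 to 329 in the 4 untreated arrays and 389 and 401 in the inhibitor arrays. Of these, VWF read 25.0 to 71.4 untreated and 169 on both inhibitor arrays, and PECAM1 188 to 216 untreated and 191 and 213 with inhibitor. Among these non-squamous markers COL1A1 (284 to 399), PDGFRB (228 to 307), PECAM1, COL1A2, DCN, CD3E, ITGAM and VWF passed the expression filter. PTPRC, LYZ, COL3A1, LUM, PDGFRA, CLDN5 and KDR stayed below it, and the part of all these markers in the results was not tested. In such bulk RNA a change in every cell and a change in the share of cells that carry a transcript cannot be told apart. Whether duplicates came from separate cultures is not stated in the labels, and the p-values thus cover only the spread among these arrays, which may be technical.

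The first comparison asks which of these transcripts changed when CYLD was depleted. BCL3 and RBCK1 rose, and no member fell. The brighter BCL3 probe set rose 2.08-fold and all 3 probe sets of RBCK1 rose by 0.37 to 0.74 on the log2 scale. RNF31, SHARPIN, IKBKG, TRAF6 and MAP3K7 did not pass the test. Genes were tested with limma on log2(signal + 16.1), each by its brightest kept probe set with 1 symbol, and were called at an adjusted p (Benjamini-Hochberg over 12935 genes) below 0.05. Of the members 6 could be tested in this way, BCL3 being left out by its shared annotation. Of these 6, 1 was called higher and 0 lower, against 21.3% of all genes called, 9.49% higher and 11.8% lower. The members' share is therefore near the background. Their median log2 difference was 0.10, against -0.04 over all genes tested. To take in the shared probe sets, all 30149 kept probe sets were also tested singly, a test added after the data were seen. In it 4 of the 16 member probe sets were called higher and 0 lower, all 4 of them probe sets of BCL3 or RBCK1, where 14.8% of all probe sets were called, 6.85% higher and 7.97% lower. Untreated siCYLD arrays lay above both siCtrl arrays without overlap for 2 of the 6 genes (60.9% of all genes did not overlap, 26.8% with siCYLD above).

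BCL3 read 1206 and 941 in untreated siCtrl and 2323 and 2146 in untreated siCYLD on the brighter probe set annotated to BCL3 and MIR8085 (204908_s_at). Both siCYLD arrays lay above both siCtrl arrays, by more than either pair of duplicates differed. The log2 difference was 1.06 with a standard error of 0.13, a 2.08-fold rise (adjusted p = 0.000237, limma over all kept probe sets). With the inhibitor the probe set read 848 in siCtrl and 2941 in siCYLD, a 3.42-fold difference between single arrays. The untreated difference ranged from 0.88 to 1.30 over 16 alternative settings and was called in all 16. The adjusted p was at most 0.0468, a value reached without the intensity trend (limma). Grouped by source name, which puts 1 array of each title in each group, it was -0.23. When the 2 arrays of conflicting labels were left out, an additive fit gave 1.30. The second shared probe set (204907_s_at) read 48.8 and 67.4 with the control siRNA against 117 and 73.7 with siCYLD, close to the filter at a signal of 79.3. Its difference was 0.57 (adjusted p = 0.289, limma), and 0.29 to 0.85 with 1 array left out. It passed the filter only through siCYLD arrays, which favours a positive difference, so its sign gives no support to that of the brighter probe set.

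The promoters of the 2 members that rose are shown because NF-κB subunits rose in the same arrays, as described further on. They are RefSeq sequence of GRCh38.p14, plus strand, from 250 bases before a transcription start to 30 bases after it, in lower case, and capitals mark a match to the κB consensus motif. BCL3 lies at chr19:44748458-44748737 and RBCK1 at chr20:408049-408328.
BCL3: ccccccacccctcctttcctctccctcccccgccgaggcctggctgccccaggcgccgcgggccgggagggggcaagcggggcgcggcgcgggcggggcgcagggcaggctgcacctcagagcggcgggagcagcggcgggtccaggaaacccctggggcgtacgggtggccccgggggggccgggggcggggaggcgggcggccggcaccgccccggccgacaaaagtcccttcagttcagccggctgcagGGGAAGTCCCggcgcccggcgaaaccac
RBCK1: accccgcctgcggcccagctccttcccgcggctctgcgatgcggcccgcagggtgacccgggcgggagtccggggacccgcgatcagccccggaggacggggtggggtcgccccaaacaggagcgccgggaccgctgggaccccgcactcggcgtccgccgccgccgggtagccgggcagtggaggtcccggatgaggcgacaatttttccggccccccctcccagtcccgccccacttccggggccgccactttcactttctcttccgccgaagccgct
In the BCL3 window the letters GGGAAGTCCC stand at bases 3 to 12 after this start, and the motif matches there on both strands. The RBCK1 window holds no match. The search covered 300-base windows that run to 50 bases after the start, on both strands and with overlapping matches counted, and 11.3% of 35116 such RefSeq windows hold at least 1 match. Of 10 windows of the 6 member genes in the table, 1 holds the motif, that of BCL3, which is near the share of all windows. None was found in windows of RNF31, TRAF6, IKBKG, MAP3K7 or RBCK1. A match describes letters only, and no binding was measured.

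**Figure D1:**
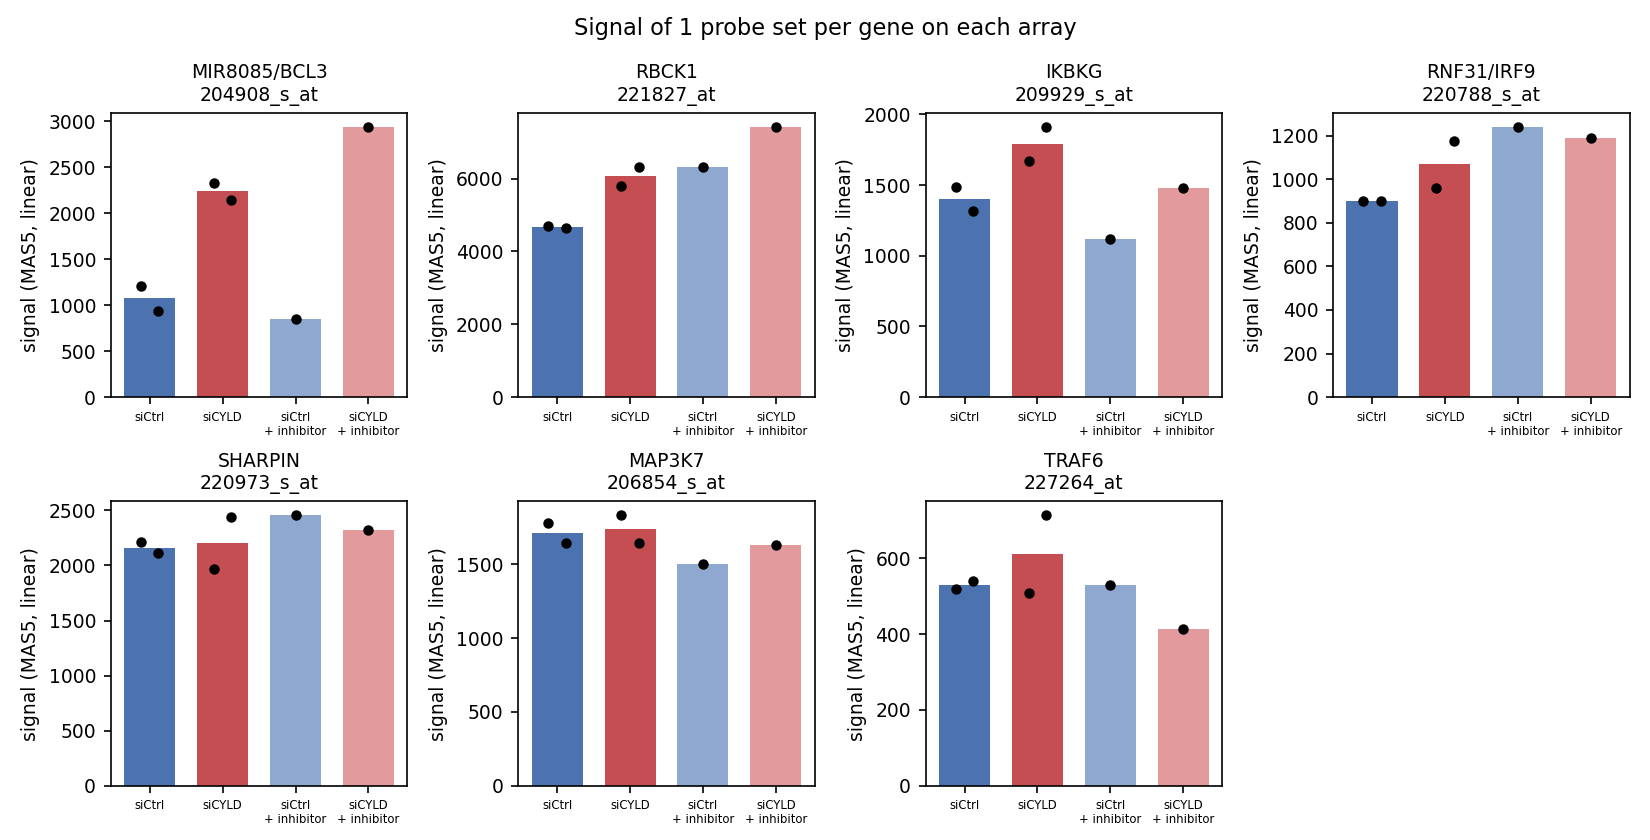
Signal of 1 probe set per gene (linear MAS5 units, axis from 0) on each of the 6 arrays. Points are arrays and bars are group means, with 2 arrays in each untreated group and 1 in each inhibitor group. For BCL3 both untreated siCYLD arrays (2323 and 2146) and the siCYLD inhibitor array (2941) lie above all siCtrl arrays (848 to 1206), whereas SHARPIN and MAP3K7 overlap.

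Among the LUBAC subunits, RBCK1 rose and its partners did not pass the test. RBCK1, which carries a ubiquitin-like domain and a zinc finger that binds ubiquitin, read 4699 and 4637 in untreated siCtrl and 5805 and 6313 in untreated siCYLD on its brightest probe set (221827_at). The siCtrl duplicates were nearly equal, and both siCYLD arrays lay above them. The log2 difference was 0.37 ± 0.09 (standard error; adjusted p = 0.0107, limma). Probe set 229920_at read 769 and 650 against 1113 and 1268, a difference of 0.74 ± 0.14 (adjusted p = 0.00347, limma over all kept probe sets). Probe set 207713_s_at read 3108 and 2832 against 3613 and 4482, a difference of 0.44 ± 0.12 (adjusted p = 0.0264 in the same fit). Its call was lost without siCtrl replicate 2 (0.37) or siCYLD replicate 2 (0.28), whereas 229920_at was called whichever array was left out (0.62 to 0.85). The call of 229920_at was lost when the intensity trend was ignored (adjusted p = 0.0754) and, in the additive fit, when the 2 arrays of conflicting labels were left out (0.54, adjusted p = 0.123, limma). The groups did not overlap on any of the 3 probe sets, as they did not for 56.8% of all kept probe sets (26.2% with siCYLD above). The gene's call was lost without siCYLD replicate 2 (0.31, adjusted p = 0.0997) and in a fit that ignored the intensity trend (adjusted p = 0.109). It was also lost in an additive fit that left out the 2 arrays of conflicting labels (0.33, adjusted p = 0.242, limma). Tested among all kept probe sets it was also lost without siCtrl replicate 2 (0.36, adjusted p = 0.0623) and with no filter (adjusted p = 0.0634, limma).

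RNF31, the subunit that forms the linear linkage, was represented by a dim probe set (231635_x_at) that read 195 and 157 with the control siRNA against 172 and 181 with siCYLD. Both siCYLD values lay between those of siCtrl. The difference was 0.01 with a 95% interval of -0.48 to 0.50 (adjusted p = 0.985, limma), which takes in changes of up to about 0.5 either way. The brighter probe set shared with IRF9, a subunit of the interferon-activated factor ISGF3, read 900 and 899 against 961 and 1175, a difference of 0.24 (interval -0.05 to 0.52, adjusted p = 0.262, limma over all kept probe sets). The remaining probe set of RNF31 lay below the filter, at 6.89 to 28.6. SHARPIN, the accessory subunit, read 2215 and 2111 with the control siRNA against 1972 and 2445 with siCYLD. The siCYLD duplicates lay on either side of the siCtrl pair, with a difference of 0.02 (interval -0.23 to 0.28, adjusted p = 0.919, limma). No test of RBCK1 against RNF31 or SHARPIN was made, so the subunits are not shown to differ in their response.

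IKBKG, whose protein NEMO binds linear chains, read 1489 and 1319 in untreated siCtrl and 1669 and 1914 in untreated siCYLD on its brightest probe set (209929_s_at). The groups did not overlap, but the difference of 0.35 ± 0.12 missed the threshold (interval 0.09 to 0.61, adjusted p = 0.0564, limma). It passed in 5 of 19 alternatives, among them without siCtrl replicate 1 (0.43) and without siCYLD replicate 1 (0.45), with an adjusted p from 0.0168 to 0.628 over all 19. With the replicate number as a block on the untreated arrays it was 0.0168, which is described with the limits. The second probe set (36004_at) read 962 and 887 against 913 and 1084, overlapping, with a difference of 0.11. IKBKG has a near-identical pseudogene, IKBKGP1, in the RefSeq gene table, so its signals are uncertain as a measure of the gene alone.

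The transcripts of TRAF6 and TAK1 did not pass the test of the knockdown. TRAF6, a ubiquitin ligase for Lys63-linked chains, read 518 and 540 with the control siRNA against 507 and 714 with siCYLD on its brighter probe set (227264_at). Only siCYLD replicate 2 stood above the other arrays, and the difference was 0.18 (interval -0.18 to 0.54, adjusted p = 0.483, limma). Its other probe set (205558_at) read 386 and 336 against 349 and 307, a difference of -0.13, so the probe sets differed in sign and neither was called. MAP3K7, the kinase TAK1, read 1780 and 1648 with the control siRNA against 1834 and 1644 with siCYLD on its brightest probe set, with a difference of 0.02 (interval -0.22 to 0.26, adjusted p = 0.925, limma). Differences of its 3 other probe sets were 0.24, -0.072 and -0.0047, and none was called. The largest of these (206853_s_at) had 1 low siCtrl array, at 354 against 602 in its duplicate, and was called without the brighter of these (0.61, adjusted p = 0.0469, limma).

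**Figure D2:**
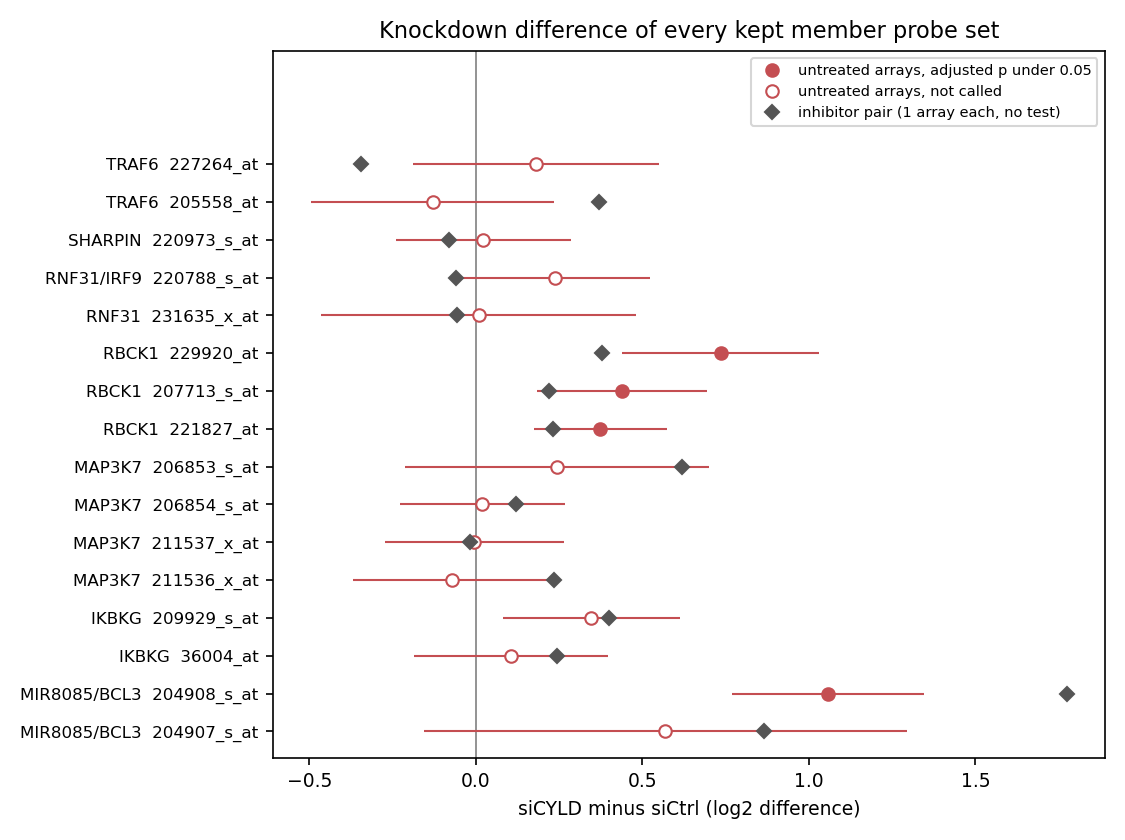
Log2 difference of siCYLD minus siCtrl (x axis) for each of the 16 kept member probe sets (y axis). Circles are untreated arrays (2 against 2) with 95% intervals from limma over all kept probe sets, filled where the adjusted p was below 0.05, and diamonds are the inhibitor pair (1 array each, no test). The filled circles are 1 BCL3 probe set at 1.06 and the 3 RBCK1 probe sets at 0.37 to 0.74.

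The second comparison asks whether blocking ALK5 changed these transcripts. With the inhibitor RBCK1 was higher on its brightest probe set and IKBKG was lower on its second probe set, and BCL3 read lower than untreated in siCtrl and higher in siCYLD cells, without a call. The test used an additive model of siRNA and inhibitor on all 6 arrays. Of the 6 members tested as genes 1 was called higher and 0 lower, against 20% of all genes (11.2% higher and 8.82% lower), with a median of -0.18 against 0.01 over all genes. Among the cell type markers, KRT5, a basal keratin, rose with the inhibitor, from 1094 and 1245 to 12525 in siCtrl and from 900 and 968 to 5595 in siCYLD cells (2.98, adjusted p = 5.3e-06, limma). Its interaction was also called (-0.84, adjusted p = 0.0463, limma). VWF, an endothelial marker, read 25.0 to 71.4 untreated and 169 on both inhibitor arrays (1.54, adjusted p = 0.0165, limma). Its probe set passed the filter, at a signal of 79.3, only through the inhibitor arrays. That favours a positive difference, so the VWF call gives no support to a rise. DSG3, KRT5, VWF and PECAM1 were picked out after their values were seen, no alternatives were run for them, and their part in the results was not tested. The untreated arrays serve both this comparison and the knockdown comparison, so their differences are not independent.

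RBCK1 read 6328 in siCtrl with inhibitor and 7429 in siCYLD with inhibitor on 221827_at, each above both untreated arrays of its siRNA. The log2 difference was 0.37 ± 0.09 (adjusted p = 0.0158, limma), made of 0.44 in siCtrl and 0.29 in siCYLD cells. The other probe sets did not share it: 207713_s_at had 0.21 and 229920_at -0.05, neither called (adjusted p of 0.24 and 0.838, limma over all kept probe sets). The mean of the 3 probe sets gave 0.18 and no call (adjusted p = 0.267). The call was also lost without siCYLD replicate 1 (0.35, adjusted p = 0.0681) and without the siCtrl inhibitor array (0.29, adjusted p = 0.0767). The same held when the 2 arrays of conflicting labels were left out (0.33, adjusted p = 0.205) and when the intensity trend was ignored (adjusted p = 0.0794, limma).

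IKBKG read 1118 in siCtrl and 1480 in siCYLD with inhibitor, each below both untreated arrays of the same siRNA. The difference of -0.30 ± 0.11 was not called (adjusted p = 0.0839, limma), but the second probe set, at 637 and 757 with inhibitor, was called among all kept probe sets, where 13.8% were and 6.76% lower (-0.46 ± 0.12, adjusted p = 0.0323). Taken as the mean of both probe sets the gene was called lower (-0.38, adjusted p = 0.0377). The call of the second probe set was lost without any 1 array other than siCYLD replicate 1, with differences of -0.39 to -0.52.

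The remaining members did not pass the test of the inhibitor. SHARPIN read 2458 in siCtrl and 2323 in siCYLD with inhibitor (0.13, interval -0.11 to 0.38) and MAP3K7 1500 and 1634 (-0.14, interval -0.37 to 0.09). The dim RNF31 probe set read 152 and 145 (-0.22, interval -0.65 to 0.21). The probe set shared by RNF31 and IRF9 read 1241 and 1191, above all 4 untreated arrays, with a difference of 0.31 ± 0.13 (adjusted p = 0.134, limma over all kept probe sets). TRAF6 had -0.26 on 227264_at (interval -0.63 to 0.11), made of 0.00 in siCtrl and -0.52 in siCYLD cells. Its other probe set had -0.46 and 0.04, so the lower value fell under a different siRNA on each probe set.

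**Figure D3:**
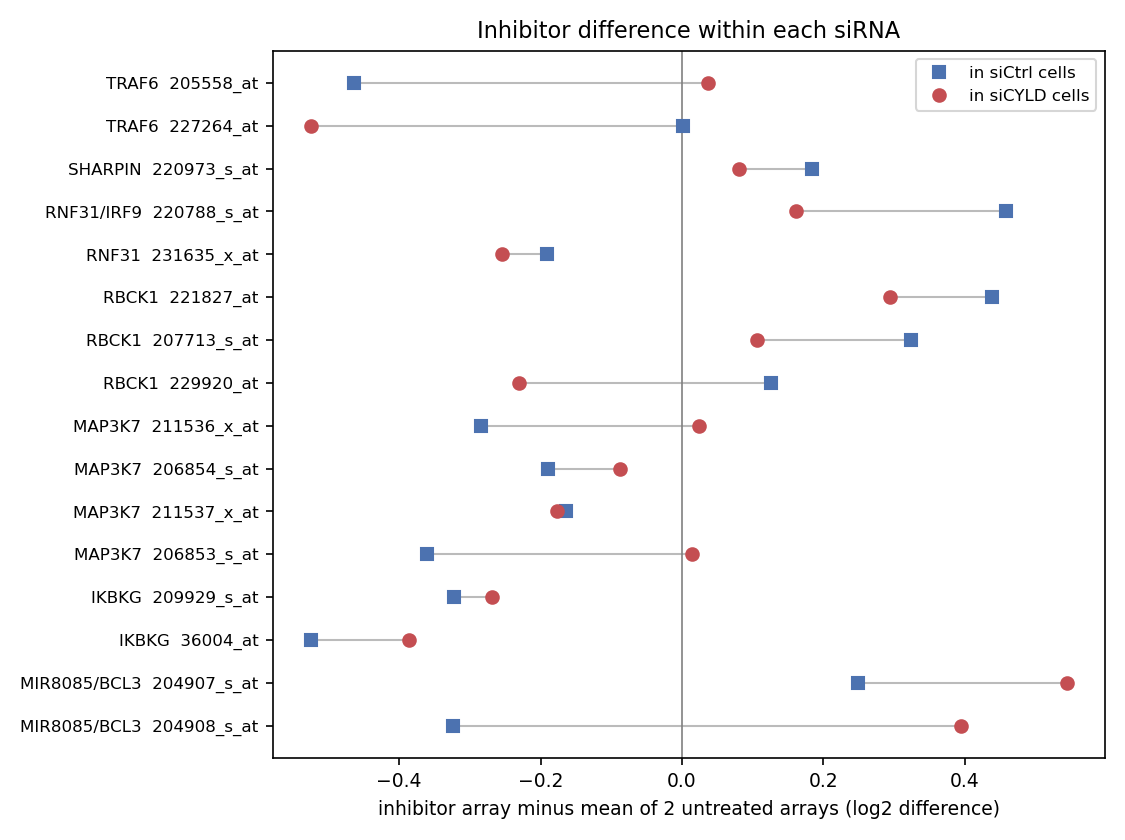
Log2 difference of each inhibitor array minus the mean of the 2 untreated arrays of the same siRNA (x axis) for the 16 kept member probe sets (y axis), in siCtrl cells (squares) and siCYLD cells (circles), with 1 inhibitor array each. Both IKBKG probe sets lie left of 0 under both siRNAs (-0.27 to -0.52), and the brighter BCL3 probe set lies at -0.32 in siCtrl and 0.39 in siCYLD cells.

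The third comparison asks whether the knockdown difference depended on the inhibitor. No member was called in this interaction: 0 of 6 genes (0 also at unadjusted p under 0.05) and 0 of 16 probe sets (1 at unadjusted p under 0.05, the brighter of BCL3), where 1.67% of genes (0.982% higher, 0.688% lower) and 0.716% of probe sets were called by limma. BCL3 had the largest interaction of the members. Its knockdown difference was 1.06 untreated and 1.78 in the inhibitor pair, an interaction of 0.72 ± 0.23 (unadjusted 95% interval 0.22 to 1.22, adjusted p = 0.235). The siCtrl inhibitor array (848) was the lowest of all 6 and the siCYLD inhibitor array (2941) the highest. For RBCK1 the difference was 0.37 untreated and 0.23 with inhibitor, for IKBKG 0.35 and 0.40, and for TRAF6 0.18 and -0.35 (adjusted p of 0.747, 0.939 and 0.457, limma). MAP3K7 had 0.02 and 0.12, SHARPIN 0.02 and -0.08, and RNF31 0.01 and -0.06.

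The wider pathway was read from 5 lists of related genes, without a test of the lists. Their counts stand beside 9.49% of all genes called higher and 11.8% lower with the knockdown. Among erasers, readers and cofactors of ubiquitin chains, 4 of 14 tested genes rose with the knockdown and 2 fell. TNFAIP3, the NF-κB feedback protein A20, read 668 and 610 with the control siRNA against 1978 and 2031 with siCYLD, a rise of 1.63 ± 0.11 (adjusted p = 6.1e-07, limma). TNIP1, which binds A20 and linear chains, rose by 0.99, the ubiquitin receptor OPTN by 0.68 and TNIP2 by 0.36. The TNIP1 call rests on probe sets ending in _s_at, and without these it was lost (0.53, adjusted p = 0.301). The TNIP2 call was lost without siCtrl replicate 2 and without siCYLD replicate 2. CYLD fell by 0.80 on the log2 scale and the ubiquitin ligase gene ITCH by 0.53, the latter at -0.017 once probe sets ending in _x_at and _s_at were left out. The CYLD call was lost without siCtrl replicate 2 (-0.66, adjusted p = 0.0584, limma). OTULIN, the deubiquitinase specific for linear chains, read 1135 and 1086 against 1103 and 1292, a difference of 0.10 that was not called (adjusted p = 0.596, limma). Taken as the mean of its probe sets the difference was larger, at 0.40, and also not called (adjusted p = 0.112, limma).

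Of the 5 lists, that of NF-κB subunits and their IκB inhibitors had the highest share of genes called higher. It includes NFKB1 and NFKB2, whose products p50 and p52 work with BCL3. Of 10 tested 7 rose and 0 fell, with a median of 0.81 beside -0.04 over all genes. RELB read 653 and 619 with siCtrl, 1523 and 1501 with siCYLD (1.23 ± 0.12). NFKBIA, which encodes IκBα, rose by 1.23, NFKBIZ, an atypical IκB gene like BCL3, by 1.11, NFKB2, which encodes p100 and p52, by 1.10, NFKB1, which encodes p105 and p50, by 0.86 and NFKBIE by 0.76. The NFKBIA call was lost when only probe sets ending in plain _at were used (0.28, adjusted p = 0.771, limma). NFKBIB (-0.29), REL (0.16) and NFKBID (0.24) were not called. Several genes of the list are known as targets of NF-κB as well as parts of it, but NF-κB activity was not measured. The list was chosen with earlier results of these arrays known.

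Among TRAF adaptors and Toll and interleukin-1 receptor genes, 5 of 13 rose and 1 fell, with a median of 0.25. IRAK2, a kinase-like adaptor that engages TRAF6, rose most, from 725 and 775 to 2583 and 2932 (1.85 ± 0.11). TRAF1 rose by 1.37, from 104 and 108 to 306 and 293, the Toll adaptor gene TICAM1 by 1.21 and TRAF3 by 0.74. MALT1 rose by 0.44 and TIFA fell by 0.47 on the log2 scale. Taken as the mean of probe sets, TRAF3 (0.38), MALT1 (0.02) and TIFA (-0.18) were not called, and TICAM1 was not called when the 2 arrays of conflicting labels were left out (0.48). TIFA lost its call without siCtrl replicate 1, siCtrl replicate 2 or siCYLD replicate 2, and MALT1 without siCtrl replicate 1 or siCYLD replicate 1. Of 11 TAK1 and IKK kinase genes 2 rose, IKBKE by 0.86 and the TBK1 adaptor gene TBKBP1 by 0.57, and 0 fell (median 0.03). The TBKBP1 call was lost without siCYLD replicate 1 (0.53) and without siCtrl replicate 2 (0.36). Of 11 genes of the TNF receptor complex and cell death 1 rose, the necroptosis gene MLKL (0.46), and 0 fell (median 0.06). These last 2 lists lie near the share of all genes. The MLKL call was lost without siCYLD replicate 1, siCtrl replicate 2 or siCYLD replicate 2.

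**Figure D4:**
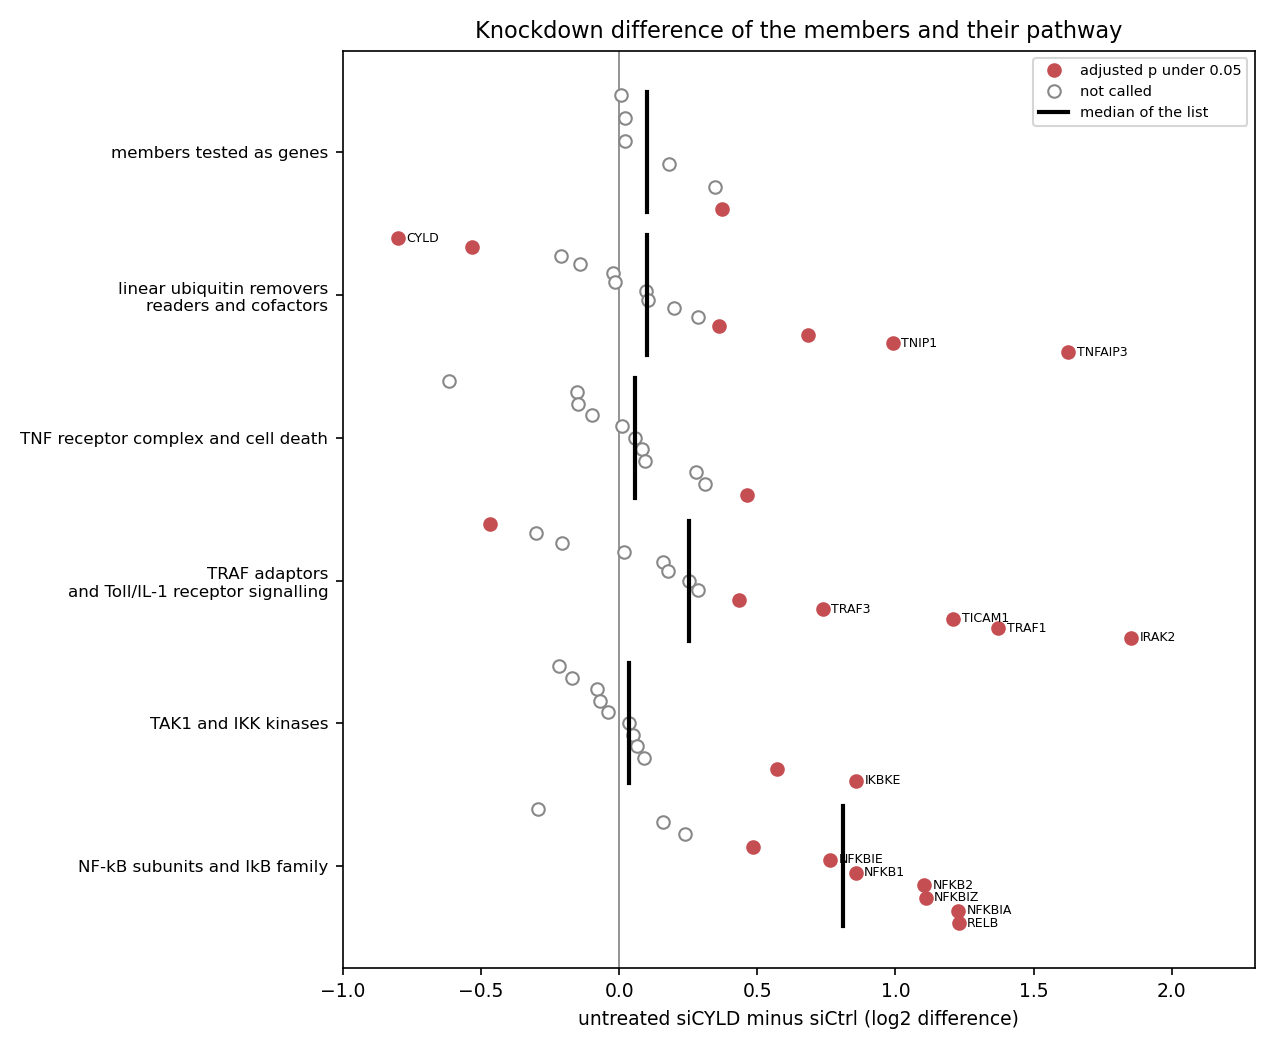
Log2 knockdown difference of untreated siCYLD minus siCtrl (x axis) for the 6 members tested as genes and for the 5 wider lists (y axis), 1 point per gene, filled where the adjusted p was below 0.05, with list medians as black bars. Genes past 0.7 in size with a call are named. The NF-κB list has its median at 0.81, the members at 0.10.

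With the inhibitor the wider lists gave 14 named calls, of which only SQSTM1 and IRAK2 were called under all alternatives run. SQSTM1, the autophagy receptor p62 that also binds TRAF6, fell by 1.23 on the log2 scale, from 23900 and 20876 to 11719 in siCtrl and from 24019 and 21257 to 7826 in siCYLD cells. IRAK2 rose by 0.73. Of the ubiquitin list 0 genes rose and 2 fell, of the TNF receptor list 3 and 2, of the TRAF list 1 and 2, of the TAK1 and IKK list 1 and 2 and of the NF-κB list 0 and 1, which together is near the 20% of all genes called with the inhibitor (11.2% higher, 8.82% lower). The remaining called genes changed less: TAX1BP1 (-0.48), RNF11 (-0.29), MLKL (0.51), RIPK2 (0.44), BIRC2 (-0.43), TRAF5 (0.38), XIAP (-0.35), TANK (-0.41), IKBKE (0.43), TBK1 (-0.43), TAB2 (-0.30) and NFKBIZ (-0.51), and each lost its call when the 2 arrays of conflicting labels were left out. BIRC2 was at -0.15, RNF11 at -0.17 and XIAP at -0.18, not called, in a fit that lacked the inhibitor array of siCYLD cells.

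By likeness of profile, the 4 genes nearest to the brighter BCL3 probe set among 12929 other genes were ABTB2, TNIP1, RCAN3 and IL23A, the last of which encodes a subunit of interleukin-23. Likeness was the Euclidean distance between log2 profiles over the 6 arrays, each centred on its mean, and the distances were 0.29, 0.37, 0.38 and 0.40. ABTB2 read 588 and 554 in siCtrl, 1099 and 1143 in siCYLD, and 486 and 1503 in the inhibitor pair. TNIP1 read 5786 and 5210, 10819 and 11038, and 5469 and 14725. The dimmer IL23A read 108 and 85.8, 210 and 199, and 55.5 and 215. Like BCL3, ABTB2, TNIP1 and IL23A had their highest value on the siCYLD inhibitor array, though for IL23A it stood little above the untreated siCYLD arrays. RCAN3 instead read 4254 in untreated siCYLD replicate 1 and 3934 on the siCYLD inhibitor array. The genes were picked for likeness over these same arrays, so a shared highest array is no separate observation.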

How the data were processed

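The authors deposited a linear intensity for each probe set on each array. Per the submitters' processing notes MAS5 was used, in a version not given in the sources used here. After trimming 2% at each end the mean was 500.1 on all 6 arrays, so no further scaling was applied. Arrays carry no read depth, and their number limits the precision. Values were taken as log2(signal + 16.1), with the 20th percentile of the signals as offset. A fold change is on this scale and understates changes of dim probe sets. Probe sets were kept where the highest group mean exceeded the median of all values, a signal of 79.3. Of 54675 probe sets 62 were array controls, 41091 had 1 symbol, 1801 several and 11721 none. The kept probe set with the highest mean stood for its gene.

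The fits used limma 3.58.1 (R 4.3.3) and a trend of variance with intensity: group means for the knockdown and interaction (2 residual and 10.9 prior degrees of freedom), an additive model for the inhibitor (3 and 7.98). The spread of the single inhibitor arrays was taken to be that of the duplicates. Alternatives changed the offset, normalization, filter, probe set rule, moderation, model, grouping and the arrays included; the fit over all kept probe sets was added after the data were seen. The script was tested on simulated data. Named are all members, CYLD, OTULIN, TNFAIP3, NFKB2, up to 6 called genes per wider list and the 4 nearest profiles. The members and lists were chosen with earlier results of these data known. Untreated arrays sharing a replicate number did not deviate together (correlation 0.04 over 12935 genes), and the labels give the number no further meaning. Promoters are from RefSeq (GRCh38.p14); the array's own build is not given in the sources used here. Figures were drawn with matplotlib 3.10.9.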

Additional observations from a re-analysis of the deposited data

Results flagged for a closer look

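TNFAIP3 is the only gene among the members and the 5 wider lists whose knockdown difference was called as different with and without the inhibitor. The interaction was 2.01 ± 0.20 on the log2 scale (adjusted p = 0.000254, limma). Its signal was 668 and 610 in untreated siCtrl, 1978 and 2031 in untreated siCYLD, 574 in siCtrl with inhibitor and 7327 in siCYLD with inhibitor, so that 1 array carries the difference and has no duplicate. It missed the threshold when the trend of variance with intensity was ignored (adjusted p = 0.127) and was called in the 11 other alternatives that could be fitted.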

How the results depend on the processing

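Among the 6 members tested as genes, 1 was called for the knockdown, 1 for the inhibitor and 0 for the interaction, and the interaction count stayed at 0 under every alternative run. The knockdown count was 0 without the intensity trend, 0 without both arrays with conflicting labels and 0 by source name. It was 2 with robust moderation, 2 in the additive model on all arrays and 2 with the replicate block, where IKBKG joined RBCK1. Leaving out 1 array at a time gave 0 to 2. The inhibitor count was 2 when only probe sets ending in plain _at were used, 0 without the intensity trend and 0 without both arrays with conflicting labels, and 0 to 1 with 1 array left out. The cause of these changes was not tested.

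The replicate block used the 4 untreated arrays only. It called 3693 of all genes, against 2802 on these arrays without it, and the arrays share only a number. Without the intensity trend 1219 genes (2757 with it) were called for the knockdown, 1087 (2586) for the inhibitor and 0 (216) for the interaction (1480 at unadjusted p under 0.05, limma). With no filter the interaction count was 33, and with the mean of probe sets 95. Without both arrays with conflicting labels 1052 genes were called for the knockdown and 1325 for the inhibitor. Over arrays left out 1 at a time, the count of genes was 2151 to 2796 for the knockdown, 1232 to 2888 for the inhibitor and 294 to 455 for the interaction.

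Grouping by source name mixes the titles in each group and called 0 genes (80 at unadjusted p under 0.05, limma). Called values that changed sign there, with no call left, were -0.23 for the BCL3 probe set, -0.026 for RBCK1 probe set 229920_at, 0.0080 for CYLD, -0.10 for IKBKE, 0.039 for ITCH, -0.030 for MALT1, -0.11 for MLKL, -0.14 for NFKB1, -0.40 for NFKB2, -0.10 for OPTN, -0.048 for RELB, -0.26 for TBKBP1, -0.43 for TICAM1, -0.045 for TNFAIP3, -0.061 for TNIP1 and -0.0072 for TRAF1. Values without a call that also changed sign were -0.13 for MAP3K7, -0.11 for RNF31, -0.10 for the second BCL3 probe set and -0.44 for MAP3K7 probe set 206853_s_at. Of the 21 wider-list genes named as called for the knockdown, 8 were called under all other alternatives (IKBKE, IRAK2, NFKB1, NFKBIZ, OPTN, RELB, TNFAIP3 and TRAF1). The dim probe sets of RNF31 and the second one of BCL3 lie near the filter, and their intervals are wide. An interaction without either inhibitor array could not be fitted.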
